A study of Homo sapiens with 6 samples.

Results

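Genes of the YAP-TEAD pathway were read across the 6 arrays of a study of NCI-H460, an established line of human non-small cell lung cancer. The set holds 10 of the 20046 genes that the platform annotation names, taken by symbol with every probe listed to them: the effectors YAP1, WWTR1 (TAZ) and TEAD1, the targets ANKRD1, CCN1 (CYR61) and CCN2 (CTGF), and the regulators AMOTL1, AMOTL2, LATS2 and AJUBA. They account for 14 of the 47323 probes on the HumanHT-12 v4 BeadChip. Parental cells, grown with 10% serum, were set beside cells grown as spheroids to enrich for cancer stem cells (CSC-rich); serum is named for the parental culture alone, so population and medium cannot be told apart. Each population was untreated, scramble-treated or treated with PNAs-A15 for 6 h, with 1 array per group and no replicate of any group. For treated CSC-rich cells the label shortens the agent's name to PNA, which is read here as PNAs-A15.

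YAP1 and WWTR1 are transcriptional coactivators without a DNA-binding domain of their own. In the nucleus they bind TEAD factors, which recognise the motif GGAATG, and in many epithelial cells the pair raises secreted and cytoskeletal genes when cells spread on a stiff surface. Of the Hippo kinases, MST acts on LATS, and LATS phosphorylates the coactivators and holds them in the cytoplasm. Several of the targets, among them LATS2 and AMOTL2, feed back on that step. ANKRD1, CCN1 and CCN2 are the targets most often used as readouts of the pathway.

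The 250 bases before the start of each gene were searched for GGAATG on both strands, in windows from RefSeq (GRCh38.p14). Of the 10 genes 8 were matched, through 11 windows, and CCN1 and TEAD1 were not searched. The windows of ANKRD1 and CCN2 are shown because they hold more matches than those of the other matched genes and because the results turn on these 2 targets. The ANKRD1 window lies at chr10:90921088-90921337 on the minus strand and the CCN2 window at chr6:131951373-131951622 on the minus strand, both written 5′ to 3′ with the GGAATG matches in capitals.
ANKRD1: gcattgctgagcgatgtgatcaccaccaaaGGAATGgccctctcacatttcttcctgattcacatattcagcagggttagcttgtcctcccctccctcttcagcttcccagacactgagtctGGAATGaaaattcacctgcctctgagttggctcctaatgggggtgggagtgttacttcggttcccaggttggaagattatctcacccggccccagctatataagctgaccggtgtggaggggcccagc
CCN2: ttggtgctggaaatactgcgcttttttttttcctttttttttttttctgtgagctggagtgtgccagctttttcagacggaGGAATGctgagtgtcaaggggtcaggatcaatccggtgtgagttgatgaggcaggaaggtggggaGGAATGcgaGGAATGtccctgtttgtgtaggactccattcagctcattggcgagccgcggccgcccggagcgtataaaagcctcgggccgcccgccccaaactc

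ANKRD1 held 2 matches, beginning 220 and 128 bases before the start, and CCN2 held 3, at 169, 104 and 95 bases. At least 1 match occurred in 11.9% of all 35116 promoter windows of this length, at least 2 in 0.94% and at least 3 in 0.0826%. YAP1 held 1 match, and AMOTL2 and AJUBA each held 1 in the second of their windows. The AP-1 motif TGANTCA occurred in the ANKRD1 window, at 195 bases and without overlap with GGAATG, and in 6.57% of all windows. No window of the set held the CArG box of SRF, found in 1.16% of all. These are letters in a window, not measured binding.

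The level of a probe is given below as its background-corrected, quantile-normalized log2 signal, and a probe was taken as detected where the authors' detection p was under 0.05. Between 36.5% and 42.8% of all probes were detected on an array, the fewest on the parental PNAs-A15 array. That array stood apart from the rest: its Pearson r with each of them, across 12101 genes, was 0.829 to 0.873, and r among the other 5 was 0.912 to 0.992. It also read probes of 1 gene unlike each other. Among 3159 genes with several detected probes, the probes lay at least 2-fold apart in 56.4% for parental PNAs-A15 minus scramble, against 2.88% for parental scramble minus untreated. The share was 15.4% for CSC-rich scramble minus untreated. The lung carcinoma label was checked against 5 epithelial markers. KRT8 and KRT19 were detected on every array and EPCAM, KRT18 and CDH1 on none, and the summed signal of the 5 ran from 14740 to 27253 on parental and from 5389 to 14481 on CSC-rich arrays. Of 7 stem cell markers CD44, SOX2, ABCG2 and ALDH1A1 were detected on every array of both populations, and PROM1, NANOG and POU5F1 on none.

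Of the 14 probes, 10 passed the filter of detection on at least 2 arrays, and they covered 9 of the 10 genes. AMOTL1 was not tested: its deposited signal lay between 122 and 160, and it was detected on the untreated CSC-rich array alone, at a detection p of 0.0442. AMOTL1 belongs to the angiomotin family, which binds YAP1 at cell junctions. The other probes left out were 2 of AJUBA and 1 of TEAD1, none of them detected on any array. Each remaining gene was read by 1 probe except CCN2, read by 2.

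**Figure D1:**
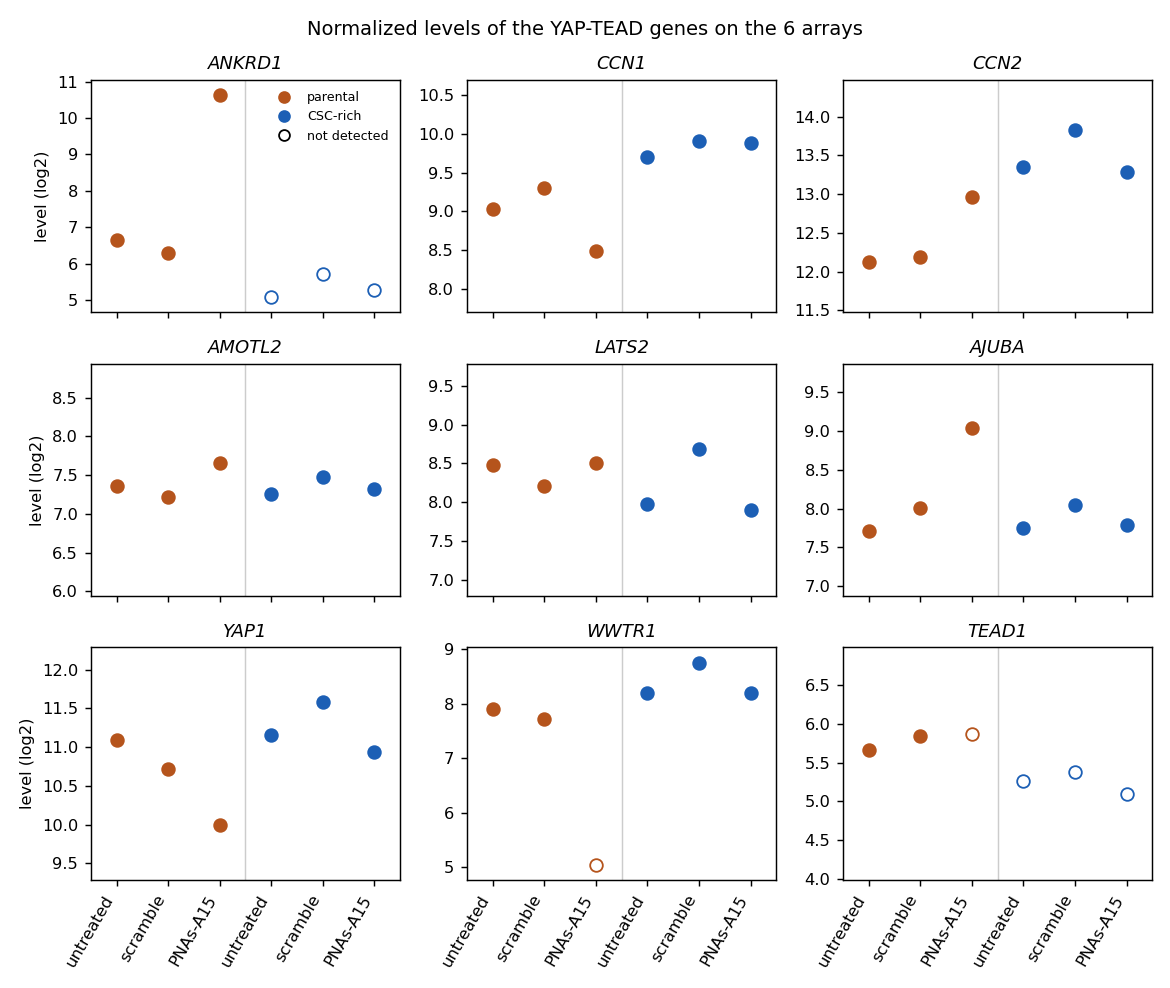
Log2 level (vertical axis) of 9 YAP-TEAD genes on each of the 6 arrays, 1 point per array, with open points where the probe was not detected; vertical axes differ between genes and do not start at 0. ANKRD1 stood at 10.63 on the parental PNAs-A15 array and at or below 6.66 on the other 5, and WWTR1 was not detected on the parental PNAs-A15 array alone.

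ANKRD1, an ankyrin repeat protein of stretched muscle and of spreading cells, had the widest range in the set. In parental cells its level was 6.66 untreated, 6.29 with scramble and 10.63 with PNAs-A15. In CSC-rich cells it was 5.08, 5.70 and 5.28 in the same order, and the probe was not detected on any of these 3 arrays. One array was therefore high, the other parental arrays were low but detected, and the CSC-rich arrays lay below both. On the deposited scale the parental signals were 222, 208 and 1190. Of 4 muscle markers with a named probe, DES, MYH7 and ACTC1 were detected on no array and MYOG on at least 1. The summed signal of the 4 was 503 on the parental PNAs-A15 array, the lowest of the 3 parental arrays.

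Set against scramble, ANKRD1 was 20.2-fold higher on the parental PNAs-A15 array, a log2 difference of 4.34, and 3.97 against the untreated array. This was the largest positive difference from scramble among the 12101 genes tested, and it was also the largest with median scaling (3.78), on deposited signals (2.43) and with an offset of 50 (3.85). Differences on deposited signals are of log2(signal + 16) throughout; without that addition the ratio was 5.73. Relative to the median of all genes, which was 0.20 after quantile normalization, -0.29 after median scaling and -0.41 for deposited signals, ANKRD1 lay at 4.14, 4.07 and 2.84. In CSC-rich cells PNAs-A15 minus scramble was -0.43, both arrays being below detection, so no fold is given. A bound, written as at least a fold, holds for the quantile-normalized scale alone. On that scale ANKRD1 was at least 30.0-fold higher in parental than in CSC-rich cells on the PNAs-A15 pair of arrays, at least 2.02-fold on the untreated pair and at least 1.33-fold on the scramble pair. The ratios of the deposited signals were 8.74, 1.71 and 1.40 in the same order. With 1 array per group these are differences between arrays, without a test.

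The coactivators read the other way on that array. WWTR1 (TAZ) was measured at 7.90 and 7.71 in untreated and scramble-treated parental cells and was not detected with PNAs-A15, where its probe read 5.04. In CSC-rich cells it was 8.20 untreated, 8.75 with scramble and 8.19 with PNAs-A15. The parental PNAs-A15 array was thus the lowest of the 6, and WWTR1 was at least 3.19-fold lower there than with scramble on the quantile-normalized scale (-1.63 on deposited signals).

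YAP1 was 11.10 untreated, 10.72 with scramble and 10.00 with PNAs-A15 in parental cells, and 11.16, 11.58 and 10.94 in CSC-rich cells. Its parental PNAs-A15 minus scramble difference was -0.72, and -1.10 against untreated cells. With median scaling the difference from scramble was -1.35 and on deposited signals -1.48, so its side of a 2-fold limit depended on the scaling and its direction did not. TEAD1, the DNA-binding partner, was near background. Its better probe was detected on 2 arrays, parental untreated (5.66) and parental scramble (5.84), and read 5.87 with PNAs-A15 and between 5.10 and 5.38 in CSC-rich cells.

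The secreted targets parted from ANKRD1 and from each other. CCN1, a matricellular protein that binds integrins, was 9.02 untreated, 9.30 with scramble and 8.48 with PNAs-A15 in parental cells, and 9.71, 9.91 and 9.88 in CSC-rich cells. On the parental PNAs-A15 array it was the lowest of the 6, at -0.81 from scramble, -1.75 with median scaling and -1.57 on deposited signals.

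CCN2, its close relative and a partner of TGF-beta signalling in matrix production, was 12.13, 12.19 and 12.97 in parental cells and 13.35, 13.82 and 13.29 in CSC-rich cells. All 3 CSC-rich arrays were above all 3 parental arrays. The second CCN2 probe read 10.86, 10.96 and 11.67, then 12.15, 12.37 and 12.08, with the same order of the arrays within each population. Against scramble CCN2 was 0.78 higher on the parental PNAs-A15 array, 0.62 with median scaling and 0.34 on deposited signals. Thus on that array ANKRD1 and CCN2 read above scramble and CCN1 below it under each of the scalings run.

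The regulators differed less between arrays, and their direction depended on the scaling. LATS2, the kinase that phosphorylates YAP1, was 8.49, 8.21 and 8.50 in parental cells and 7.98, 8.68 and 7.90 in CSC-rich cells, where the scramble array was the highest. AMOTL2, an angiomotin family member, stayed between 7.22 and 7.66 on all 6 arrays. AJUBA, a LIM protein that binds LATS kinases, was 7.71, 8.01 and 9.04 in parental cells and 7.76, 8.05 and 7.79 in CSC-rich cells. Parental PNAs-A15 minus scramble was 1.03 for AJUBA, 0.44 for AMOTL2 and 0.29 for LATS2 after quantile normalization. On deposited signals the same differences were -0.15, -0.49 and -0.70, so no direction is given for these 3 genes.

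**Figure D2:**
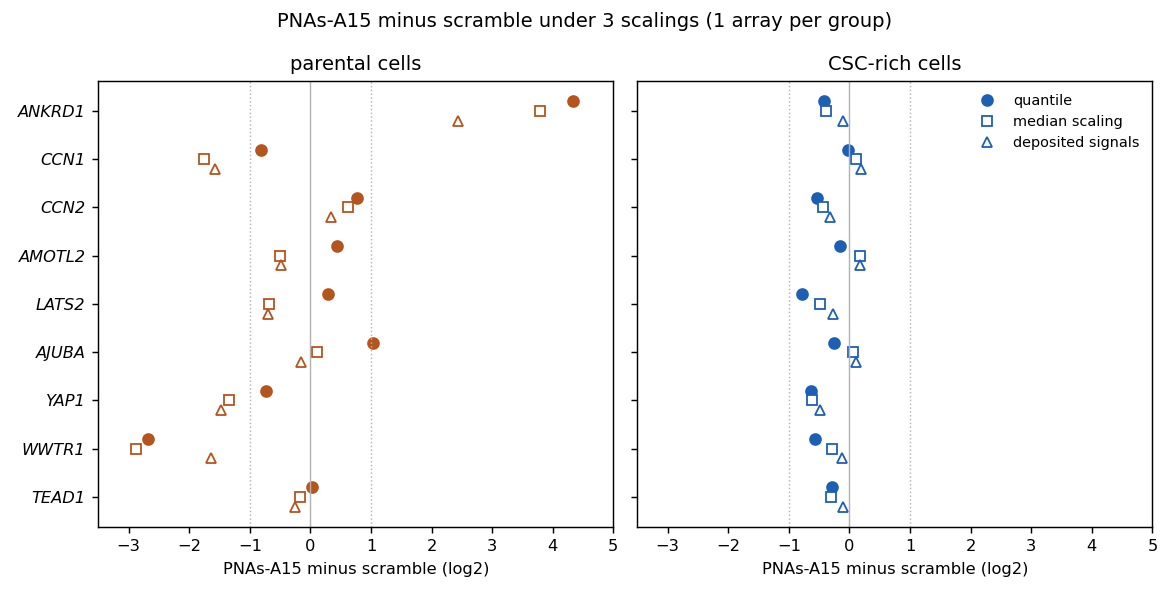
PNAs-A15 minus scramble (log2, horizontal axis) for each YAP-TEAD gene in parental and CSC-rich cells under 3 scalings, with dotted lines at a 2-fold difference; each point is a difference between 2 arrays, with no error. ANKRD1 and WWTR1 lay past 2-fold under all 3 scalings in parental cells, in opposite directions, while every CSC-rich difference lay within 2-fold.

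Counted together, 2 of the 9 measured genes were at least 2-fold higher on the parental PNAs-A15 array than with scramble (22.2%), beside 20.9% of all genes, and 1 was at least 2-fold lower (11.1%), beside 16.8% of all genes. Both shares were near those of all genes. With median scaling 1 was higher and 3 lower, beside 7.02% and 27.4% of all genes, and on deposited signals the same counts stood beside 1.79% and 25.3%. The median over the 9 genes was 0.29, against 0.20 over all genes. With PNAs-A15 set against the untreated array, 2 were higher and 2 lower, beside 20.5% and 17.2%.

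In CSC-rich cells no gene of the set was 2-fold apart between any 2 treatments. PNAs-A15 minus untreated lay between -0.22 (YAP1) and 0.20 (ANKRD1, below detection), where 0.256% of the genes tested passed 2-fold upward and 0.19% downward. PNAs-A15 minus scramble was below 0 for all 9 genes, from -0.78 for LATS2 to -0.03 for CCN1, with a median of -0.43 against -0.10 over all genes. In that comparison 6.34% of the genes tested passed 2-fold upward and 3.04% downward. Scramble minus untreated, which shares the scramble array, was above 0 for all 9, with a median of 0.42 against 0.08, where 0.735% passed 2-fold upward and 2.88% downward. With median scaling 3 of the 9 were above 0 in the first comparison and 7 in the second, and on deposited signals 3 and 5. The CSC-rich scramble array had the second lowest share of detected probes, 38.5%.

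In parental cells scramble differed from untreated by between -0.37 (both ANKRD1 and YAP1) and 0.30 (AJUBA), with 0 of 9 genes 2-fold apart, where 0.438% of the genes tested passed 2-fold upward and 0.165% downward.

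The additive model of treatment and population in limma, fitted over all 12101 genes and 6 arrays, gave no gene a call for PNAs-A15 against scramble (0%), for PNAs-A15 against untreated cells (0%) or for scramble against untreated cells (0%) at an adjusted p under 0.05. At an unadjusted p under 0.05 the counts were 503 (4.16%), 456 (3.77%) and 1 (0.00826%) of all genes, and 0 of the 9 YAP-TEAD genes in each. The lowest adjusted p among these 9 was 0.785 for PNAs-A15 against scramble. The model leaves 2 residual degrees of freedom, and its spread holds array noise together with any difference of treatment effects between populations.

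The comparison of the populations asked how the spheroid-derived CSC-rich cells differed from the parental line. CCN1, CCN2, WWTR1 and YAP1 read higher in CSC-rich cells on all 3 pairs of arrays, and ANKRD1 lower on all 3. However, no gene of the set passed limma's test over all genes. For TEAD1 no direction by pair is given, because its CSC-rich readings were background. Its bound was 1.01-fold on the untreated pair, and none could be set on the scramble pair. On the PNAs-A15 pair both TEAD1 readings were below detection. YAP1 was at 0.06 on the untreated pair and at -0.05 there with median scaling. CCN2 differed by 1.06 ± 0.38 (SE, n = 3 arrays per population; adjusted p 0.20) and CCN1 by 0.90 ± 0.34 (adjusted p 0.225). WWTR1 differed by 1.497 ± 0.56 (adjusted p 0.217), an estimate that rests on the parental array where it was not detected: the pairs gave 0.30 untreated, 1.04 with scramble and 3.15 with PNAs-A15. YAP1 differed by 0.62 ± 0.35 (adjusted p 0.379).

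ANKRD1 had a fitted difference of -2.51 ± 0.85 (adjusted p 0.182). This estimate too rested on the parental PNAs-A15 array. ANKRD1 was not detected in CSC-rich cells, and the quantile-normalized means bound it at 4.32-fold or more lower there over all arrays, but at 1.64-fold without both PNAs-A15 arrays. The fitted difference on deposited signals was -1.38. TEAD1, also not detected on a CSC-rich array, differed by -0.54 ± 0.32 (adjusted p 0.403), with means only 1.03-fold or more apart. AJUBA (-0.38 ± 0.39), LATS2 (-0.21 ± 0.37) and AMOTL2 (-0.06 ± 0.33) differed by about 1 SE or less, with adjusted p between 0.642 and 0.945 in limma's fit.

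In the same fit 284 of all genes (2.35%) were called, 104 higher and 180 lower, and 0 of the 9. With median scaling the split was 29 and 82, and on deposited signals 2 and 19. Groups of 3 arrays did not overlap for 5 of the 9 genes (ANKRD1, CCN1, CCN2, WWTR1 and TEAD1), beside 33.9% of all genes. ANKRD1 and TEAD1 passed the detection filter through parental arrays alone and read as background in CSC-rich cells, so the filter favoured their separation. At an unadjusted p under 0.05 there were 4 of the 9 (ANKRD1, CCN1, CCN2 and WWTR1), beside 19.1%. On single pairs of arrays CCN2 was at least 2-fold higher (1.22) and ANKRD1 lower without treatment, where 6.62% of the genes tested passed 2-fold upward and 5.91% downward. With scramble CCN2 (1.63) and WWTR1 (1.04) were at least 2-fold higher and no gene of the set lower, where 15.9% and 13.2% passed. Only 1 gene of the set was higher there with median scaling, on deposited signals or with an offset of 50. The ratio of the deposited WWTR1 signals was 1.24. With PNAs-A15 WWTR1 and CCN1 (1.40) were higher and ANKRD1 and AJUBA (-1.25) lower, where 18.4% and 20% passed, and AJUBA was at -0.44 there with median scaling.

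**Figure D3:**
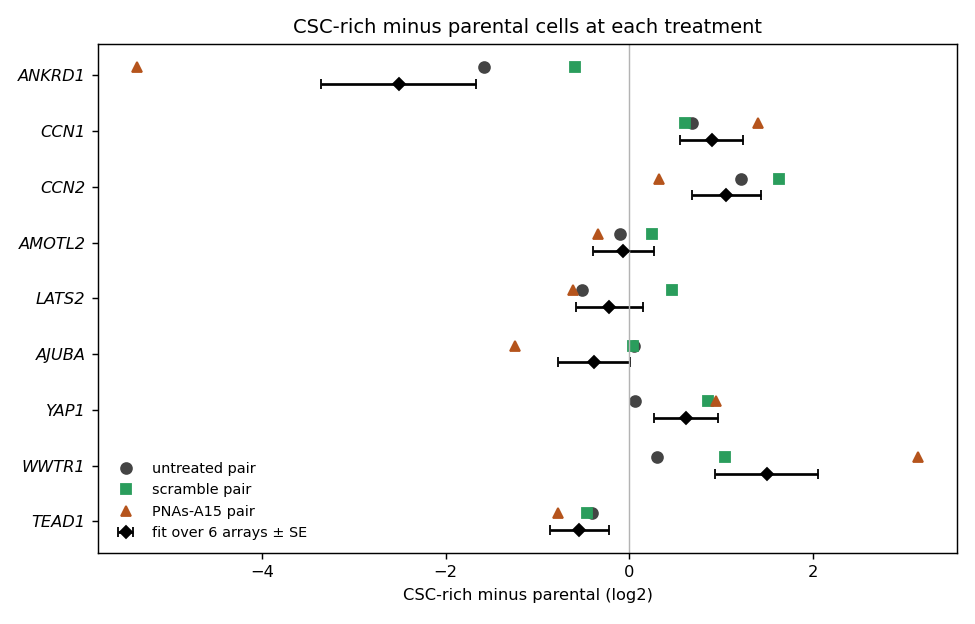
CSC-rich minus parental difference (log2, horizontal axis) of each YAP-TEAD gene on the untreated, scramble and PNAs-A15 pairs of arrays, with limma's estimate over all 6 arrays and its SE. The PNAs-A15 pair lay farthest from 0 for ANKRD1 at -5.36 and WWTR1 at 3.15, and nearest to 0 for CCN2 at 0.32.

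The calls turned on which arrays were used. Without both PNAs-A15 arrays CCN2 was higher by 1.43 ± 0.31 (limma, adjusted p 0.00584) and ANKRD1 lower by a fitted -1.09 ± 0.34 (adjusted p 0.0349), the difference of ANKRD1 shrinking and that of CCN2 growing. These were 2 of 9 genes, where 19.5% of all genes were called. With a population term alone and only the 4 arrays other than parental PNAs-A15 and scramble-treated CSC-rich, CCN2 (1.16 ± 0.15), CCN1 (0.63 ± 0.17), ANKRD1 (-1.30 ± 0.19) and TEAD1 (-0.57 ± 0.16) passed, 4 of 9 where 30.5% of all genes did. The CSC-rich arrays of that fit were untreated and PNAs-A15 and the parental ones untreated and scramble, so population and treatment are partly mixed. ANKRD1 and TEAD1 were detected on no CSC-rich array and passed the detection filter through parental arrays alone. Their differences in these fits therefore set parental levels against background, and the TEAD1 means over 6 arrays were bounded at only 1.03-fold. A population term alone over all 6 arrays called none of the 9, where 5.35% of all genes were called. Without both untreated arrays ANKRD1 passed (limma, adjusted p 0.00362), where 3.43% of all genes were called. That fit gave each gene the same SE of 0.73, so its p-value does not reflect the spread of ANKRD1 itself. The bound for ANKRD1 was 1.33-fold on the scramble pair and 30.0-fold on the PNAs-A15 pair. Without both scramble arrays no gene of the set passed (lowest adjusted p 0.0967), where 0.76% of all genes were called. WWTR1 without both PNAs-A15 arrays lay at 0.67 ± 0.32, under its value over 6 arrays, and YAP1 at 0.46 ± 0.33; neither passed (adjusted p 0.169 and 0.359 in limma). The 2 CCN2 probes gave 1.06 ± 0.39 and 1.04 ± 0.36 in a fit over all probes.

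Other genes of the pathway were read from lists chosen for it. Of 20 measured further targets of YAP-TEAD, 10 had a fitted difference above 0 and 10 below. The test over all 6 arrays called 3 of them, where 2.35% of all genes were called. IGFBP3, an insulin-like growth factor binding protein, was higher by 2.54 ± 0.41 (adjusted p 0.0326 in limma). The receptor kinase AXL was lower, at -2.63 ± 0.44 (adjusted p 0.0356). BIRC5 (survivin), also a gene of mitosis, was lower at -4.76 ± 0.34 (adjusted p 0.0064). The surface enzyme NT5E was at 2.28 ± 0.48 and missed the threshold (adjusted p 0.0671). The list median was -0.03, against 0.01 over all genes. IGFBP3 did not pass without both untreated or both scramble arrays, AXL did not pass without both scramble arrays, and BIRC5 passed in each of these fits.

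Without both PNAs-A15 arrays, where 19.5% of all genes were called, 9 of these 20 passed, 4 higher (IGFBP3, NT5E, TGFB2 and TGFBR2) and 5 lower (AXL, BIRC5, EDN1, FOXF2 and RBMS3). Targets of the pathway thus passed in both directions in that fit, as ANKRD1 and CCN2 did. On the parental PNAs-A15 array 3 of the 20 were at least 2-fold higher than with scramble and 3 lower, beside 20.9% and 16.8% of all genes. With median scaling these counts were 0 and 5, and on deposited signals 0 and 4. CRIM1 and TGFB2 were not detected there, and read at least 5.07-fold and 3.30-fold lower on the quantile-normalized scale (-1.77 and -1.40 on deposited signals). NT5E was at -1.50, and AXL at 1.48, or 0.80 with median scaling. A second AXL probe gave 0.02 in that comparison.

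Of 23 measured Hippo kinases and upstream regulators none passed over 6 arrays (median 0.27). The scaffold SAV1, partner of the MST kinases, lay at 1.27 ± 0.54, FRMD6 at 1.16 ± 0.53, WWC1 (KIBRA) at -1.11 ± 0.40 and WWC2, detected on 1 CSC-rich array, at -1.01 ± 0.61. On the parental PNAs-A15 array 7 of the 23 were at least 2-fold higher than with scramble and 5 lower, beside 20.9% and 16.8% of all genes. With median scaling the counts were 3 and 6, and on deposited signals 1 and 5. The lowest were the kinase TAOK1 at -2.91, SAV1 at -2.60 and RASSF1 at -2.31. WWC2 was at 2.62, and at 0.66 on deposited signals. In CSC-rich cells these 4 genes differed by -1.10, -0.28, 0.94 and -0.70 in the same order. Without both PNAs-A15 arrays 2 of the 23 passed for the populations, where 19.5% of all genes did, the YAP-binding AMOT and the kinase TAOK3, both higher in CSC-rich cells (0.99 ± 0.33 and 1.20 ± 0.33, limma, adjusted p 0.0485 and 0.0191).

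**Figure D4:**
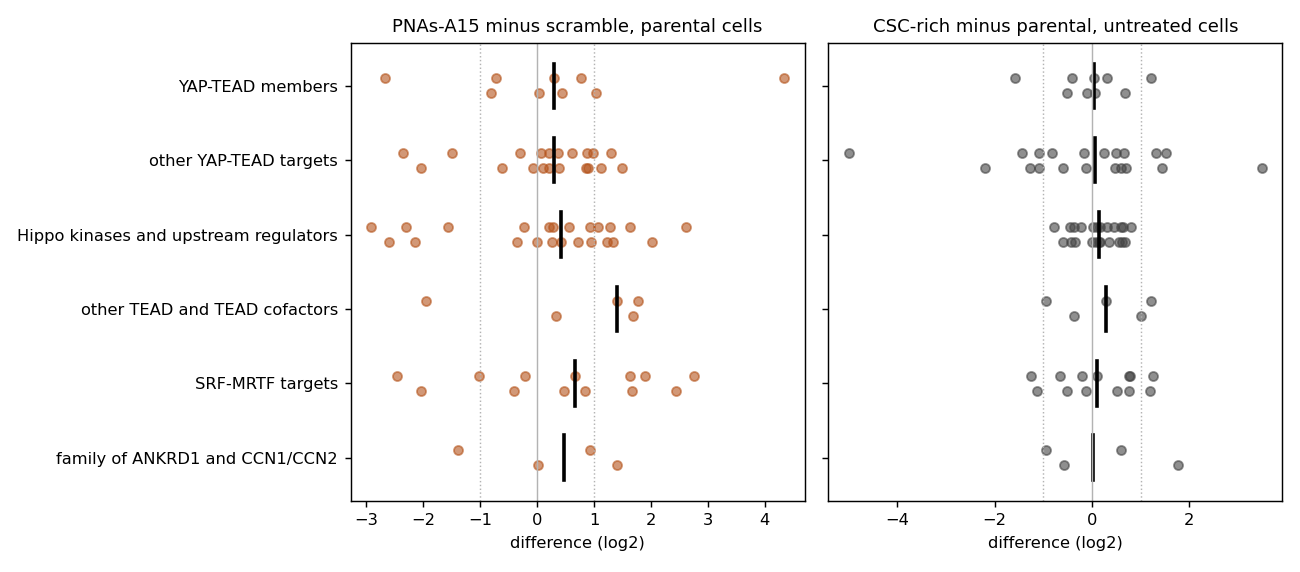
Log2 differences of the measured genes of 6 lists, 1 point per gene with a black bar at the list median, for PNAs-A15 minus scramble in parental cells (left) and CSC-rich minus parental in untreated cells (right); dotted lines mark 2-fold. ANKRD1, the rightmost point on the left at 4.34, lay apart from the other genes of all 6 lists, whose highest was 2.76.

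The other TEAD factors and cofactors counted 5 measured genes, none of which passed over 6 arrays. TEAD4 lay at -1.63 ± 0.41 (adjusted p 0.103), TEAD2 at 0.67 ± 0.45, the TEAD cofactor VGLL4 at 0.66 ± 0.44 and TEAD3 at 0.33 ± 0.48. Without both PNAs-A15 arrays, where 19.5% of all genes were called, TEAD4 was lower (-1.17 ± 0.32, limma, adjusted p 0.0179). In that limma fit VGLL4 (1.22 ± 0.31) and TEAD3 (0.98 ± 0.32) were higher, with adjusted p of 0.0145 and 0.0427. On the parental PNAs-A15 array TEAD2 was at -1.95 from scramble, VGLL4 at 1.69 and TEAD4 at 1.40, and TEAD3, not detected with scramble, was at least 3.03-fold higher on the quantile-normalized scale. With median scaling TEAD3 was at 1.14 and on deposited signals at 0.25, so the size of its difference depended on the scaling. On deposited signals VGLL4 was at 0.91 and TEAD4 at 0.82. A second TEAD4 probe gave -2.26 there, opposite to the first.

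The list of SRF, MRTFB and their targets had 13 measured members and none that passed over 6 arrays (median 0.05). It stands for a second actin-linked programme that shares genes with YAP-TEAD. TAGLN was at 1.68 ± 0.35 (adjusted p 0.0641), TPM2 at -1.51 ± 0.33 (adjusted p 0.0756), CNN2 at -1.40 ± 0.46 and MRTFB at 1.40 ± 0.42. On the parental PNAs-A15 array 5 were at least 2-fold higher than with scramble and 3 lower, beside 20.9% and 16.8% of all genes, and on deposited signals 3 and 3. The smooth muscle actin ACTA2, at 2.76, and FHL2, at 2.44, were high, and a second FHL2 probe gave 0.38. ACTB was at -2.47, and its other 2 probes gave -5.49 and -3.90, while MRTFB was at least 3.87-fold lower on the quantile-normalized scale (-1.50 on deposited signals). Without both PNAs-A15 arrays 4 of the 13 passed for the populations, where 19.5% of all genes did, ACTA2 and TAGLN higher and TPM1 and TPM2 lower in CSC-rich cells.

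Among relatives, CCN3 was higher in CSC-rich cells, with a fitted difference of 2.58 ± 0.39 (limma, adjusted p 0.027) over 6 arrays. It was detected on 2 of the 3 parental arrays and did not pass without both scramble arrays. CCN3 was the 1 call among 4 measured relatives of ANKRD1, CCN1 and CCN2, where 2.35% of all genes were called. ANKRD2, a muscle ankyrin repeat protein like ANKRD1, was not detected in CSC-rich cells, at a fitted -1.15 ± 0.39. ANKRD2 read 1.40 above scramble on the parental PNAs-A15 array, and 0.10 above it on deposited signals. CCN5, likewise not detected in CSC-rich cells, lay at a fitted -0.74 ± 0.33, and ANKRD23 at 0.62 ± 0.32.

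The 5 genes whose profile over the 6 arrays was closest to that of ANKRD1, by the root mean square difference of mean-centred log2 levels, were ACSM3 (0.50), KLK1 (0.51), TEX19 (0.57), SERTAD4-AS1 (0.61) and MARCHF4 (0.64). ACSM3, for example, was 7.22, 6.91 and 10.07 in parental cells and read between 5.19 and 5.89 in CSC-rich cells. KLK1, SERTAD4-AS1 and MARCHF4 were detected on 3 of the 6 arrays, ACSM3 on 4 and TEX19 on 5. Part of each profile, like that of ANKRD1, is therefore background. The nearest gene of the YAP-TEAD set was AJUBA at 1.47, ranked 1495 of 12100, and the farthest was WWTR1 at 3.06.

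Markers of other cells were read beside these genes. Of 6 fibroblast markers 5 were detected on at least 1 array, between 3 and 5 on each, with COL1A1 on none, and their summed deposited signal ran from 1708 to 8265 on parental and from 3600 to 4648 on CSC-rich arrays. The lowest sum was that of the parental PNAs-A15 array. Of 5 endothelial markers only KDR was detected on any array, and the summed signal ran from 541 to 621 over all arrays. Of 5 named immune markers PTPRC and CD3E were detected on none, and the sum was 6411 on the parental PNAs-A15 array, the highest of the parental arrays, and 4852 to 6926 on CSC-rich arrays. The part of any of these in the results above was not tested, and fewer cells of a type and less RNA per cell cannot be told apart.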

How the data were processed

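The authors deposited 2 values per probe on each array, a signal intensity on a linear scale and a detection p-value. The software was GenomeStudio 2011.1, per the submitters' processing notes. The sources used here give no background or scaling step before deposit. Deposited series matrix intensity values were identical to them in 100% of cells. Probes were named through the platform annotation: 30113 had 1 symbol, 8 had several and 17202 stay unnamed here; 30074 matched RefSeq gene identifiers.

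Signals were background-corrected with limma's normexp model (limma 3.58.1, R 4.3.3), negative controls being inferred from the detection p-values, with an offset of 16, then quantile-normalized on the log2 scale. Named probes detected on at least 2 arrays (detection p below 0.05) were kept (16023), and the probe with the highest mean stood for its gene (12101 genes). limma's lmFit and eBayes fitted treatment and population over 6 arrays, with Benjamini-Hochberg adjustment over all genes and a threshold of 0.05. No label ties an array to its own culture, so a p-value reflects the spread among these 6 arrays alone, which may be technical, and the number of arrays limits the precision. An undetected probe has only a bound, from the lowest detected signal of its array or its own level. The genes and lists were chosen with earlier results of these data known. Named genes were all 10 YAP-TEAD genes, up to 4 per list with the largest difference in each of 2 comparisons, and the 5 most like ANKRD1; genes named for passing without the PNAs-A15 arrays were chosen after their values were seen. Alternatives changed the scaling, offset, filter, probe rule, model and arrays. The fit was run on simulated data with independent noise of the same size for every gene, no treatment effect and no array standing apart. These arrays differ from that setting, so the simulation does not show how the fit behaves on them.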

Additional observations from a re-analysis of the deposited data

Results flagged for a closer look

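In 4 genes the difference between PNAs-A15 and scramble lay on opposite sides of 0 in the 2 populations and at least 2-fold apart, with 1 array per group, so none of these contrasts was tested. For ANKRD1 the parental difference exceeded the CSC-rich one by 4.77 on the log2 scale (4.34 and -0.43, the latter between arrays below detection). For CCN2 the gap was 1.31 (0.78 and -0.54), for AJUBA 1.29 (1.03 and -0.26) and for LATS2 1.08 (0.29 and -0.78). All 4 rest on the same 4 arrays, which include the parental PNAs-A15 array that stood apart. For CCN2 the opposite directions held on deposited signals, at 0.34 and -0.33, but the 2-fold gap was lost. For LATS2 the parental direction turned with median scaling and on deposited signals. For AJUBA the opposite directions and the 2-fold gap were lost with median scaling, where the differences were 0.11 and 0.06, and on deposited signals, where they were -0.15 and 0.12.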

How the results depend on the processing

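Over 6 arrays no YAP-TEAD gene passed for the populations under any of the 7 settings of scaling, offset, filter and probe rule. Calls over all genes, 284 as reported, came to 111 with median scaling, 21 on deposited signals, 167 over all probes and 0 of 20046 with no filter on detection (2962 at an unadjusted p under 0.05 in limma). Without both scramble arrays there were 92 calls, without both PNAs-A15 arrays 2360, and with a population term alone 648 over 6 arrays and 3696 over the 4 arrays other than parental PNAs-A15 and scramble-treated CSC-rich. The YAP-TEAD genes called were 1 without both untreated arrays, where limma gave each gene the same SE of 0.73, 2 without both PNAs-A15 arrays and 4 over those 4 arrays. AMOTL2 turned from -0.06 to 0.0670 with median scaling, 0.0350 on deposited signals, 0.0751 without both PNAs-A15 arrays and 0.00060 over those 4 arrays, and AJUBA to 0.0462 without both PNAs-A15 arrays. On the parental PNAs-A15 array the genes at least 2-fold higher than scramble went from 2 to 1 with median scaling, on deposited signals and with an offset of 50. Those lower went from 1 to 3 with median scaling and on deposited signals, and to 2 against the untreated array, a reference added after seeing the data. AJUBA turned to -0.15 on deposited signals. The treatment contrasts gave 0 calls under the same 7 settings, with at most 529 genes, or 626 probes, at an unadjusted p under 0.05. The cause was not tested. Treatment is a term of the fit and pairs the arrays of the populations, and the labels give no replicate numbers for a further block. Fits with a population term alone lack it, and the 4 arrays named above do not hold the same treatments in both populations. Levels of ANKRD1 in CSC-rich cells and of TEAD1 were limited by the signal over background.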
